A study of Mus musculus with 20 samples.

Results

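The let-7 family was measured on a miRNA DNA chip in lung, liver, kidney, heart and spleen of klotho(-/-) mice and wild-type littermates. The members were chosen by name as the 8 probes for the mature strands of let-7a, let-7b, let-7c, let-7d, let-7e, let-7f, let-7g and let-7i, of 200 mouse miRNA probes in all. Mice without klotho, a membrane protein made mainly in kidney that takes part in phosphate balance, age early and die young. All mice were male and 5 weeks old. The groups were named by this genotype alone, with no other allele or agent, and the chip does not measure klotho mRNA, so the genotype labels could not be checked by it. There were 10 groups (5 tissues in either genotype) with 2 arrays in each, which the study describes as individual mice, and so small a number limits the precision of all values. The mice of both genotypes were numbered 1 and 2, and arrays are named here by these numbers. Whole tissue was used, so fewer cells of a type and less of a miRNA per cell cannot be told apart.

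let-7 miRNAs are small RNAs that pair through the seed near their 5′ end with messenger RNAs and repress them. The family was found in worms as a regulator of developmental timing, and in mammals it is abundant in differentiated tissues, where it restrains growth genes such as Ras and Hmga2. Its members are made from several genes that are processed by the same enzymes, and the protein Lin28 blocks the maturation of most of them.

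The sequences are given because the members differ by few bases. All 8 mature strands had 22 bases and the same seed, shown in capitals (bases 2 to 8 from the 5′ end). The sequences were taken from RefSeq, build GRCm38.p6.
let-7a: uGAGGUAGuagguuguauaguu
let-7b: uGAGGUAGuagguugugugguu
let-7c: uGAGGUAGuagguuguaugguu
let-7d: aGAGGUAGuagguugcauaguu
let-7e: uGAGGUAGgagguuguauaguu
let-7f: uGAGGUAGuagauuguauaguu
let-7g: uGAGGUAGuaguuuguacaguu
let-7i: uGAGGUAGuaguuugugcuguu

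Counted from the 5′ end of let-7a, let-7c differed from it by A19G, let-7e by U9G and let-7f by G12A. let-7b differed by A17G and A19G, and let-7d by U1A and U16C. let-7g differed by G12U and U18C, and let-7i, with the most differences, by G12U, A17G, U18C and A19U. Among the 28 pairs of members the number of differing bases ran from 1 to 6, and 4 pairs differed by 1. The probe sequences and the extent to which a probe binds other members were not used here, so each value is that of a probe and may hold signal of its nearest relatives.

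The 8 members came from 11 loci in GRCm38.p6. let-7a, let-7f and let-7d lie in a cluster on chromosome 13, at chr13:48538179-48538272, chr13:48537829-48537917 and chr13:48536012-48536114. A further let-7a locus lies on chromosome 9 within the bounds of the long noncoding RNA gene Mir100hg, at chr9:41536716-41536811, with the hairpins of miR-100 and miR-125b nearby. let-7b and a let-7c locus lie 622 bp apart within Lncppara on chromosome 15, and the other let-7c locus lies next to miR-99a on chromosome 16. A miR-125b locus lies further along chromosome 16, at chr16:77646279-77646300. let-7e lies within Spaca6 on chromosome 17 beside miR-99b and miR-125a, and the other let-7f locus within Huwe1 on the X chromosome beside miR-98. let-7g lies within Wdr82, at chr9:106178840-106178927, and its nearest hairpin is that of miR-135a, 24627 bp away. let-7i lies at chr10:122985640-122985724 with no other hairpin within 60000 bp.

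The family gave a large part of the light on every chip. Its share of the summed background-subtracted signal was 25.5 to 30.4% in lung, 22.7 to 32.4% in kidney, 19.2 to 23.7% in spleen, 14.4 to 16.8% in liver and 11.4 to 17.0% in heart (the lowest and highest of 4 arrays each). Of the 10 brightest probes of an array 1 to 5 were let-7 members. A share falls where other probes of a tissue are bright, and without the brightest probe the liver arrays stood at 23.8 to 27.6%. All 8 members passed the minimum mean signal of 10 in all 5 tissues, so each was tested in each of them.

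**Figure D1:**
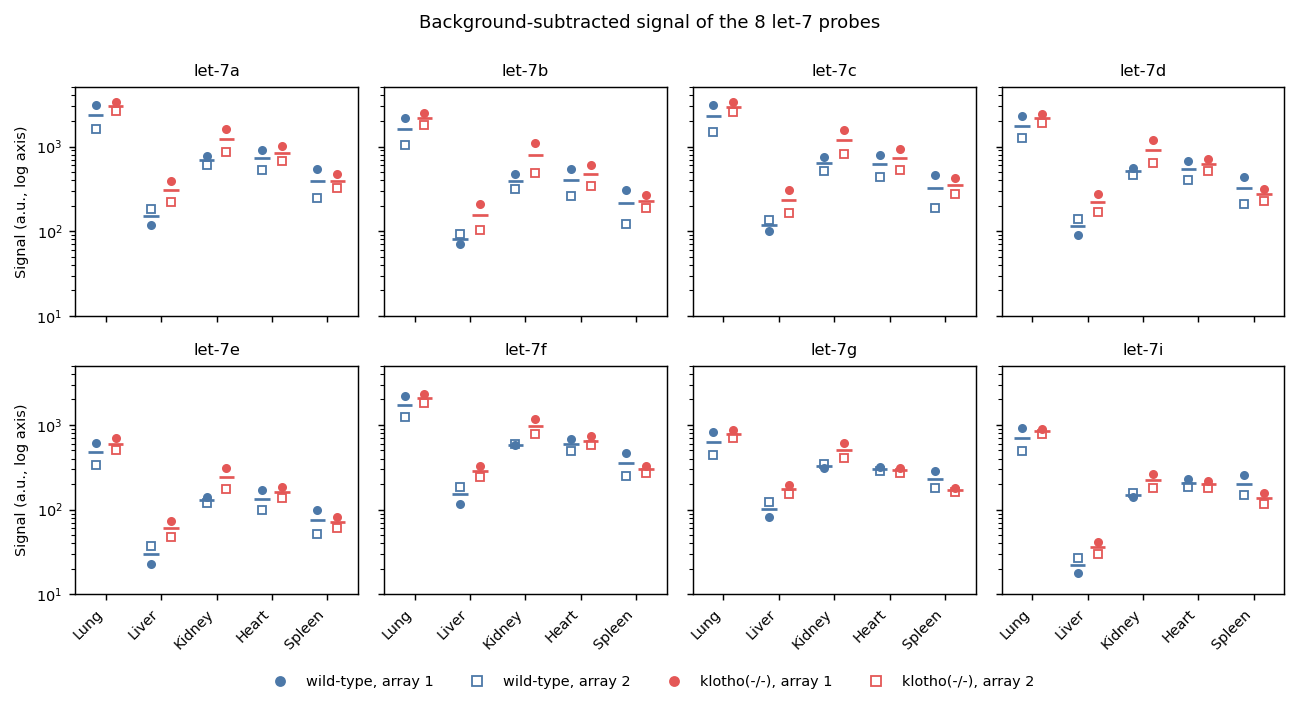
Signal of each let-7 member on all 20 arrays by tissue, in arbitrary units on a log axis, after the subtraction of background by the authors and without scaling. Points are arrays and bars the means of 2. The mean signal was highest in lung and lowest in liver for all 8 members, and in lung the 2 wild-type arrays lay further apart than the means of the genotypes.

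The arrays differed in brightness as a whole, and this limits every comparison of levels. The summed signal was between 4162 and 57568, and in liver and kidney both klotho(-/-) arrays were brighter than wild-type. In these tissues all 8 members had higher deposited signals on both klotho(-/-) arrays than on both wild-type arrays, with ratios of means of 1.60 to 2.03 in liver and 1.48 to 2.02 in kidney. Most other probes did too, since 82% of all tested probes in liver and 78% in kidney lay higher on both klotho(-/-) arrays. The median log2 difference of all tested probes without scaling was 0.39 in liver, 0.34 in lung and 0.30 in kidney, but 0.04 in spleen and 0.02 in heart. For the genotype comparison the 4 arrays of a tissue were therefore brought to 1 distribution (quantile normalization), 50 was added and log2 was taken, so that a difference is relative to the other probes of the tissue.

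With klotho loss 1 of the 8 members passed the test. let-7g was lower in klotho(-/-) heart by a log2 difference of -0.36 ± 0.09 (SE, limma adjusted p = 0.0259, 2 arrays per genotype) and lower over the 5 tissues by -0.19 ± 0.04 (adjusted p = 0.00493), and no other member passed the test in a tissue or over tissues. For comparison, 5% of all tested probes were called in heart and 17.6% over tissues. The test over tissues took the 10 arrays of a genotype as independent, though the study describes duplicates from 2 individual mice. Its SE and p are therefore not those of 10 mice. With the tissues of a mouse taken as related, 1 member, let-7g, was called over tissues. A call is an adjusted p under 0.05, by Benjamini-Hochberg over the 61 to 113 probes tested in a tissue or the 108 tested over tissues.

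let-7g had deposited signals of 311 and 270 in klotho(-/-) heart and 318 and 287 in wild-type heart. These overlap, with a ratio of means of 0.960. After normalization its values in heart were 8.18 and 8.28 in klotho(-/-) and 8.52 and 8.67 in wild-type on the log2 scale, which do not overlap. The call in heart did not survive median scaling, where the difference was -0.07 (adjusted p = 0.961), nor no scaling (-0.05). With the replicate number as a block the adjusted p in heart was 0.0618. It was between 0.0573 and 0.387 when any 1 of the 4 heart arrays was left out.

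The order of the genotypes in unscaled let-7g signals differed between the other tissues. In lung the signals were 877 and 706 in klotho(-/-) against 834 and 437 in wild-type. In liver they were 194 and 155 against 81 and 123. In kidney they were 613 and 410 against 313 and 350, and the klotho(-/-) arrays were thus higher in liver and kidney and overlapped with wild-type in lung. In spleen both klotho(-/-) arrays, 181 and 161, lay below both wild-type arrays, 283 and 182. After normalization the difference was below 0 in 5 of 5 tissues, at -0.20 in lung, -0.11 in liver, -0.07 in kidney and -0.20 in spleen. The mean over tissues was kept when any 1 array was left out, from -0.22 to -0.16, and without the spleen it was -0.18 (adjusted p = 0.0409). It depended on the scaling, since it was -0.05 with median scaling (adjusted p = 0.619) and 0.21 with no scaling (adjusted p = 0.243), where the median of all probes was 0.17.

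**Figure D2:**
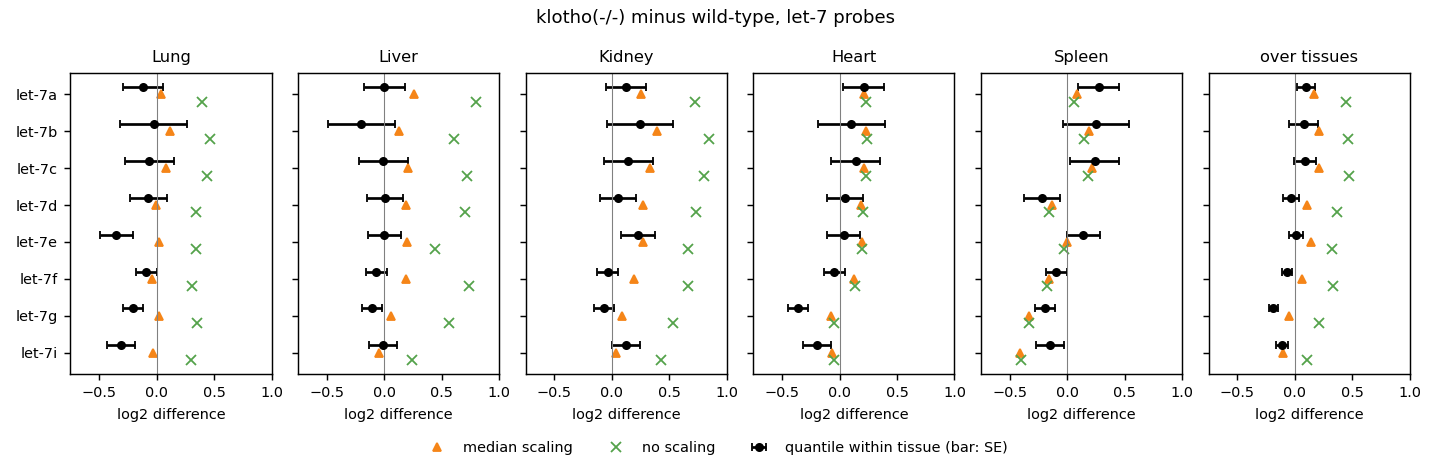
Difference klotho(-/-) minus wild-type of each let-7 member on the log2 scale, in each tissue and as the mean over tissues, with 3 scalings. Black points carry the SE of the model. The differences without scaling lie well above 0 for most members in liver and kidney, and above 0 for all members in lung. Those after normalization lie on both sides of 0 except in lung, where all are below 0. let-7g in heart is at -0.36.

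In lung all 8 members had differences below 0, with a median of -0.10 beside 0.01 over all probes, and 0 of 8 were called where 7.96% of all probes were. Of all tested probes in lung 47.8% lay below 0. The direction of the family turned with the scaling, since its median was 0.02 with median scaling and 0.35 with no scaling. let-7e (-0.35 ± 0.15), let-7i (-0.31 ± 0.12) and let-7g (-0.20 ± 0.09) had unadjusted p-values of 0.0313, 0.0241 and 0.0372, with adjusted p from 0.182 to 0.222. With median scaling these 3 differences were 0.02, -0.04 and 0.02. In liver 0 of 8 were called against 4.92% of all probes, and the differences ran from -0.20 to 0.01. In kidney 0 of 8 were called against 7.69%, with differences from -0.07 to 0.25 and a median of 0.12 beside 0.02 over all probes.

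In spleen 0 of 8 members were called where 30.2% of all probes were. Their differences ran from -0.22 for let-7d to 0.27 for let-7a, with a median of 0.02 beside 0.05 over all probes, and let-7g (-0.20 ± 0.09) had an unadjusted p of 0.0431 (adjusted p = 0.103). Without klotho(-/-) Spleen 1, let-7a was called in spleen at 0.57 (adjusted p = 0.0321). The spleens differed in other markers. miR-144, a miRNA of red cell precursors, had signals of 12 to 13 in klotho(-/-) spleen and 263 to 338 in wild-type spleen. The sum of 3 leukocyte miRNAs was 259 to 581 against 582 to 959, and miR-375 of pancreatic islets stood at 130 on klotho(-/-) Spleen 1 and at 13 on klotho(-/-) Spleen 2 against 5 on the wild-type arrays. Their part in the let-7 values was not tested. The 2 klotho(-/-) spleen arrays were also the pair least alike, with r = 0.778 over 96 probes, against 0.937 to 0.995 in the other groups. This did not hold for the let-7 members alone. Over the 8 members the median absolute log2 difference between the 2 arrays was 0.14 in klotho(-/-) spleen. It was highest in wild-type heart, at 0.46.

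Whether the genotype difference was unequal between the tissues was asked by an F test. None of the 8 members was called, against 13.9% of all probes, and the lowest adjusted p was 0.308 (let-7e). At an unadjusted p of 0.05 none passed either. The SE of a member's genotype difference in a tissue was 0.09 to 0.29 on the log2 scale.

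The level of let-7i set liver apart from the other tissues. For this comparison all 20 arrays were brought to 1 distribution, and a tissue was set against the mean of the others, with a call at an adjusted p under 0.05 and a log2 difference above 1 in either direction. let-7i was lower in liver by -1.06 ± 0.07 (limma adjusted p = 3.88e-08, 4 arrays against 16) and was the only call among the members. The share of all probes called was 22.2% for spleen, 15.7% for liver, 13% for kidney, 9.26% for heart and 5.56% for lung. let-7i in liver had a difference of -0.68 with median scaling, which is under the limit of 1.

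let-7i had the lowest signals of the tissues in liver, at 42 and 30 in klotho(-/-) and 18 and 27 in wild-type. In lung it gave 904 and 784 in klotho(-/-) and 917 and 496 in wild-type. In kidney the signals were 263 and 180 against 141 and 158. In heart they were 217 and 181 against 229 and 186, and in spleen 159 and 117 against 255 and 150, and in both tissues the genotypes overlapped. After normalization over the 20 arrays the order of the levels of let-7i was spleen (8.78 ± 0.22, SD, n = 4 arrays), lung (8.65 ± 0.14), heart (7.97 ± 0.14), kidney (7.79 ± 0.14) and liver (7.24 ± 0.07). Spleen and lung overlapped, as did heart and kidney, and the liver arrays lay below all others.

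let-7g ran the other way in liver. Its order was liver (9.39 ± 0.11), kidney (9.22 ± 0.10), spleen (9.15 ± 0.21), lung (8.53 ± 0.09) and heart (8.27 ± 0.14). Neighbours overlapped except spleen and lung. The highest level of let-7f was also in liver (10.16 ± 0.31) and the lowest in heart (9.39 ± 0.15), with each neighbour overlapping. let-7a, let-7b and let-7c shared lung first and kidney next, and all 3 were lowest in heart, where let-7a stood at 9.75 ± 0.26, let-7b at 8.69 ± 0.34 and let-7c at 9.37 ± 0.35. let-7d was also lowest in heart (9.09 ± 0.33), apart from the next tissue, liver. let-7e was highest in lung (8.21 ± 0.22) and lowest in spleen (7.24 ± 0.18), with all neighbours overlapping.

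The place of the family as a whole depended on the scaling. The median difference of the 8 members was -0.64 in heart after quantile normalization, beside -0.13 over all probes, and it was 0.21 with median scaling and 0.09 with no scaling. In spleen it was 0.10, -0.94 and -0.94 in the same order. In lung it was 0.46, 0.33 and 2.20, and in liver 0.04, 0.19 and -1.85, with all probes at 0.90 in lung and -0.83 in liver when nothing was scaled. No direction of the whole family is given for heart, spleen or liver, since it turned with the scaling.

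**Figure D3:**
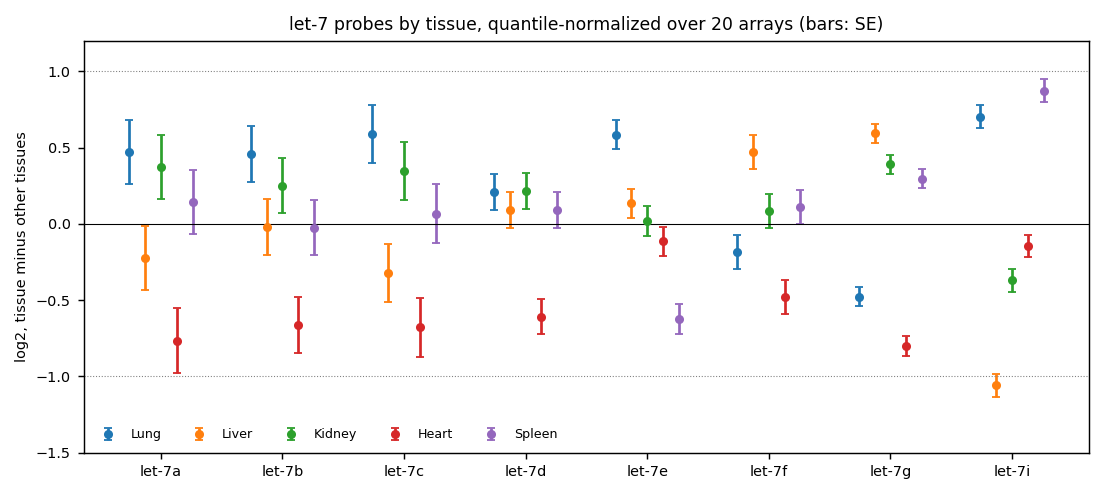
Level of each let-7 member in a tissue minus the mean of the other tissues, on the log2 scale after quantile normalization over 20 arrays, with the SE. Dotted lines mark a difference of 1 in either direction. let-7i spans the widest range, from liver at -1.06 to spleen at 0.87, and let-7g is lowest in heart at -0.80.

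The make-up of the family can be followed without any scaling. For this the mean of the 8 members on an array was subtracted from the log2 signal of each member. A factor common to all signals of an array largely cancels in this difference. It does not cancel fully, since a value was added before log2 was taken, which weighs most on dim signals. The part of brightness that remains was not tested. This difference shows how members move against each other and not whether any of them stayed the same. Because the 8 values of an array sum to 0, a fall of one member raises the others. By an F test on these values 5 of 8 members differed between tissues (let-7b, let-7c, let-7f, let-7g and let-7i), against 91.7% of all 108 tested probes, so the share of members was below that of the chip. The adjusted p was 5.16e-07 for let-7i, 9.22e-06 for let-7g, 0.0031 for let-7f, 0.0244 for let-7c and 0.0362 for let-7b. let-7a, let-7d and let-7e were not called (adjusted p = 0.215, 0.363 and 0.243).

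Relative to the family, let-7i was lowest in liver and highest in spleen. Its relative value was -1.89 ± 0.15 in liver (SD, n = 4 arrays), -1.39 ± 0.22 in kidney, -0.97 ± 0.21 in heart, -0.84 ± 0.08 in lung and -0.42 ± 0.26 in spleen. The 4 liver arrays, at most -1.76, lay below all other arrays, and the 4 spleen arrays, at least -0.63, lay above all others. The span of tissue means was 1.47 on the log2 scale, or 2.76-fold.

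let-7g was highest in liver and lowest in lung. It stood at 0.28 ± 0.15 in liver, -0.15 ± 0.26 in spleen, -0.22 ± 0.19 in kidney, -0.42 ± 0.27 in heart and -0.97 ± 0.02 in lung. The 4 lung arrays lay below all others, and the liver arrays overlapped with those of spleen. The span was 1.25, or 2.37-fold. let-7g and let-7i, which share the changes G12U and U18C from let-7a, both had an extreme value in liver, in opposite directions.

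The other members moved less. let-7b and let-7c, whose loci lie side by side on chromosome 15, were both highest in lung (0.41 ± 0.09 and 0.89 ± 0.06) and lowest in spleen (-0.07 ± 0.22 and 0.53 ± 0.24), with spans of 1.39-fold and 1.29-fold. let-7f was highest in liver (0.91 ± 0.11) and lowest in lung (0.45 ± 0.06). The tissue means of let-7a, let-7d and let-7e spanned 1.11-fold, 1.09-fold and 1.19-fold. The calls of let-7b and let-7c were lost when the spleen was left out (adjusted p = 0.0951 and 0.0703), and without single arrays. They were lost for both members without klotho(-/-) Lung 1, klotho(-/-) Lung 2, klotho(-/-) Spleen 2, wild-type Lung 1, wild-type Liver 2 or wild-type Spleen 2, and for let-7b also without klotho(-/-) Spleen 1 or wild-type Lung 2, with an adjusted p of up to 0.135.

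**Figure D4:**
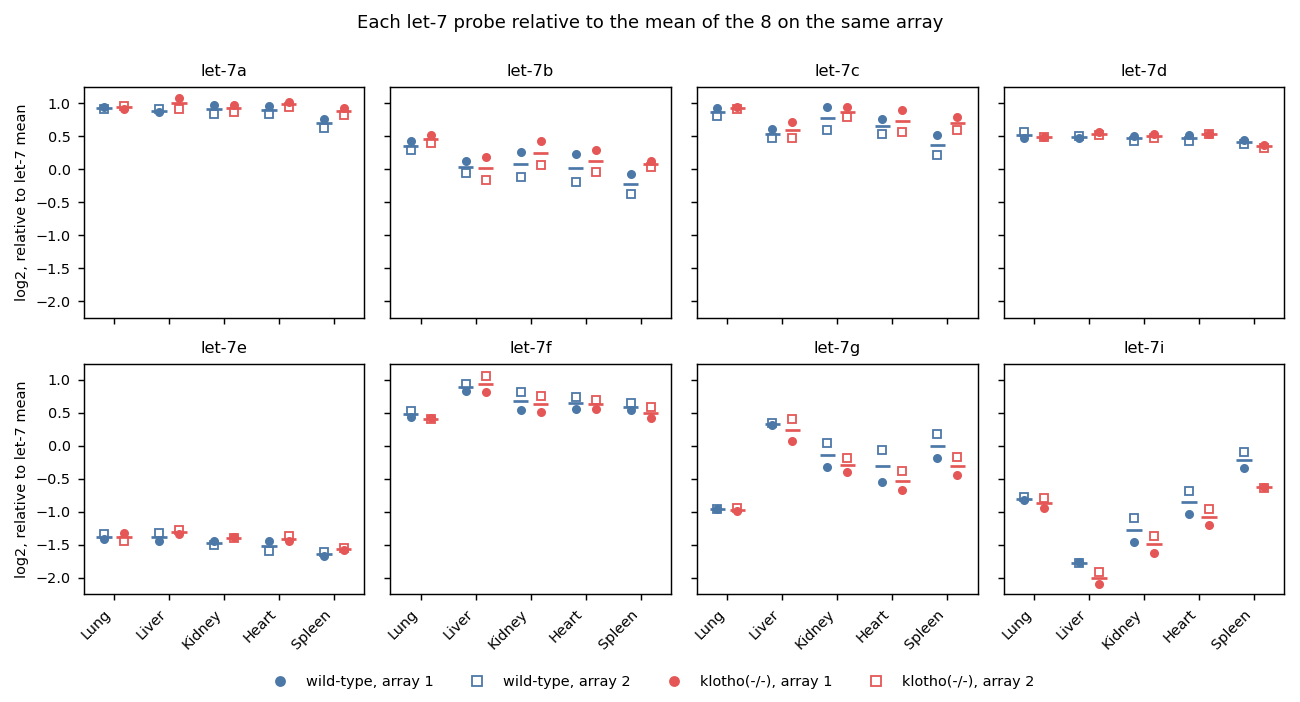
log2 signal of each let-7 member minus the mean of the 8 members on the same array, by tissue, with 1 point per array and bars for the mean of 2. let-7g and let-7i cover the widest ranges, with let-7i lowest in liver at -2.09 to -1.76 and let-7g lowest in lung at -0.995 to -0.94, and let-7d stays between 0.32 and 0.56.

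Pairs of members kept a ratio across tissues to different degrees. The SD over the 20 arrays of the log2 ratio of a pair was lowest for let-7a and let-7d at 0.07, followed by let-7d and let-7e at 0.07, and for let-7b and let-7c it was 0.09. It was highest for let-7g and let-7i at 0.83. let-7a and let-7d share the cluster on chromosome 13, but let-7f of the same cluster had SDs of 0.22 with let-7a and 0.19 with let-7d, above those of let-7e, which lies on another chromosome, with both. All pairs share the array and its brightness.

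No difference in the make-up with klotho loss passed the test in the main model. Relative to the family, let-7i was lower in klotho(-/-) by -0.23 ± 0.08 over tissues (limma adjusted p = 0.0679) and let-7g by -0.16 ± 0.09 (adjusted p = 0.280), both below 0 in 5 of 5 tissues. None of the 8 was called, where 14.8% of all probes were, and let-7i alone had an unadjusted p under 0.05 (0.0151). With the replicate number as a block, let-7i was called (adjusted p = 0.0206), together with let-7c at 0.13 (0.0336) and let-7b at 0.13 (0.0434). With the tissues of a mouse taken as related, the adjusted p of let-7i was 0.212, and without the spleen it was 0.383. let-7i was also called when wild-type Heart 1 was left out (adjusted p = 0.0395).

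In spleen the relative value of let-7i was -0.63 on both klotho(-/-) arrays and -0.33 and -0.09 on the wild-type arrays, which do not overlap. In kidney it was -1.62 and -1.37 against -1.46 and -1.10, in heart -1.19 and -0.96 against -1.03 and -0.68, and in lung -0.95 and -0.79 against -0.83 and -0.78, all with overlap. In liver it was -2.09 and -1.91 against -1.76 and -1.78, again without overlap. Compared by number, klotho(-/-) lay below wild-type in 10 of 10 pairs for let-7i, with differences of -0.54 to -0.01, and in 8 of 10 for let-7g. For let-7f it was also below in 8 of 10. The rest lay above wild-type in most pairs, let-7b and let-7e in 9, let-7a and let-7c in 8 and let-7d in 7. These pairs come from the mice numbered 1 and 2 of each genotype and are not 10 separate replicates. The share over all probes is not given, so the counts do not show whether the members stand out. Since the 8 values of an array sum to 0, low counts for some members go with high counts for others. In liver the signals of let-7i were only 18 to 42.

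The array number moved with the make-up as well. On array 1 of a group the relative value of let-7b was higher than on array 2 in 10 of 10 groups, by 0.27 ± 0.12 (SD over 10 groups), and that of let-7c in 10 of 10, by 0.21 ± 0.10. let-7g was lower on array 1 in 9 of 10 groups (-0.24 ± 0.17), let-7f in 9 (-0.15 ± 0.08) and let-7i in 8 (-0.18 ± 0.14). For let-7b, let-7c, let-7f and let-7g the mean difference between the numbers was larger in size than that between the genotypes (0.13, 0.13, -0.04 and -0.16). For let-7i it was smaller (genotypes -0.23). Array 1 minus array 2 had the same sign as klotho(-/-) minus wild-type for every member but let-7e (-0.005 and 0.07). Both numbers occur in both genotypes, and whether the patterns are linked was not tested. The summed signal was higher on array 1 in 8 of 10 groups. The study calls the numbers individual mice and does not state what else arrays of 1 number share, and the part of brightness in these values was not tested.

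**Figure D5:**
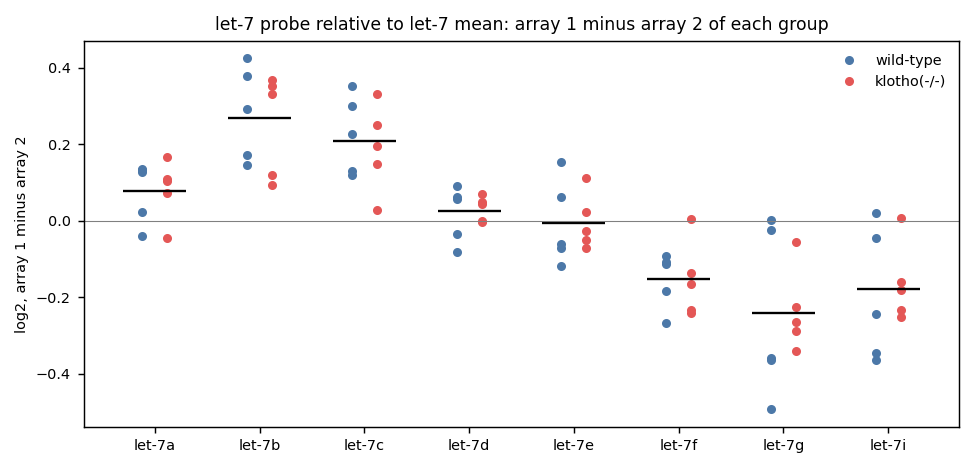
Difference of the relative log2 value between array 1 and array 2 of the same group, for each let-7 member. Points are the 10 groups, coloured by genotype, and bars their means. All 10 points of let-7b and of let-7c lie above 0, and those of let-7g reach -0.49.

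The miRNAs that share a cluster with let-7 loci were followed from a list of 6, namely miR-98, which has the same seed, and miR-99a, miR-99b, miR-100, miR-125a and miR-125b. 4 of them had a probe by name, without miR-98 and miR-100. None of the 17 genotype tests of these 4 in single tissues and none of the 4 over tissues was called. miR-125b in spleen, at 0.32 ± 0.14, was the only one with an unadjusted p under 0.05 (limma adjusted p = 0.110). By locus miR-99a is a relative of let-7c, and miR-125b of let-7a and let-7c. Between tissues miR-99a and miR-125b had differences in heart of 0.90 ± 0.07 and 0.89 ± 0.12, under the limit of 1 for a call. With median scaling these were 1.19 and 1.31, and with no scaling 0.86 and 0.93. let-7c and let-7a had differences in heart of -0.68 ± 0.19 and -0.77 ± 0.21, also under the limit, which turned to 0.20 and 0.26 with median scaling. In other tissues the directions were mixed. miR-125a had 0.59 in lung and -0.68 in spleen beside let-7e at 0.59 and -0.62, but -0.56 in liver beside 0.13. miR-125b had 0.62 in lung and -0.93 in liver beside let-7c at 0.59 and -0.32. miR-99a had -0.87 in spleen beside let-7c at 0.07.

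Of 100 other probes with a mean signal of at least 10, those whose normalized level was most like the mean of the 8 members over the 20 arrays were miR-200b (Pearson's r = 0.61), miR-141 (0.61), miR-200c (0.60), miR-146 (0.58) and miR-146b (0.56). The least alike were miR-378 (-0.83), miR-208 (-0.79) and miR-133b (-0.76), of which miR-208 and miR-133b are miRNAs of striated muscle. By rank these were weaker, with Spearman's rho of -0.64 for miR-378, -0.33 for miR-208 and -0.19 for miR-133b. The points share 5 tissues and the array scaling, and no p is given. These values rest on quantile normalization over 20 arrays, where the median difference of the 8 members in heart was -0.64. It was 0.21 with median scaling and 0.09 with no scaling, and the likeness was not computed with those.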

How the data were processed

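The authors labelled small RNA of each tissue with 1 dye for a chip of 200 probes. Of the 2 intensity tables they deposited, 1 was without background subtraction, and for the other they took a constant off each array and rounded. The dimmest probes of the latter did not go below a lowest value of 1 to 3 per array. Neither showed scaling between arrays. Deposited signals in the text come from the latter.

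Unsubtracted intensities were background-corrected by normexp of limma 3.58.1 in R 4.3.3. Values were quantile-normalized within a tissue (genotype) or over 20 arrays (tissues), 50 was added and log2 taken. Differences of dim probes are drawn toward 0 by the value added. For the make-up of the family 1 was added and no scaling done. 1 limma model with 10 groups was fitted to 20 arrays, with eBayes and a trend (10 residual and 2.14 prior degrees of freedom). Probes with a mean signal of at least 10 were tested, and p-values were adjusted by Benjamini-Hochberg over all of them. The rule named the 8 members, the listed partners, and the 5 probes most and 3 least like the family mean. The single markers were named because they differ beside a result. The members and lists were chosen with earlier results of these data known. The script was tested on simulated data drawn from the means and spreads of the arrays.

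The numbers 1 and 2 of both genotypes deviated together, with correlations over probes of 0.548 (liver), 0.475 (kidney), 0.371 (spleen), 0.230 (lung) and 0.107 (heart). What mice of 1 number share is not stated, so this pairing comes from the values. Other settings tried were median scaling, no scaling, the second table, another value added, no filter or a minimum of 30, a block for the number, a random block for the mouse, each tissue alone, the methods' t-test, and leaving out each array or the spleen.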

Additional observations from a re-analysis of the deposited data

How the results depend on the processing

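With 2 arrays per group the precision is limited. The call of let-7g in heart was lost under median scaling, no scaling, quantile normalization over 20 arrays, no filter, the replicate block, each tissue fitted alone and the methods' t-test (0 members called in each, against 1). That t-test called 1 member in lung, let-7a, whose arrays share a rank within each genotype and so have no spread. Over tissues 0 members were called with median scaling and with no scaling, where let-7g turned to 0.21. With quantile normalization over 20 arrays 1 member was called in spleen, let-7g at -0.35.

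Between tissues, median scaling called 0 members in liver and 2 in spleen, where let-7b (-1.02) and let-7c (-1.04) passed. With no scaling 8 members were higher in lung and 8 lower in liver, and 2 were lower in spleen. Compared with the main values, let-7f (1.99) and let-7g (1.34) then turned in lung, let-7d (-1.82), let-7e (-1.33), let-7f (-1.60) and let-7g (-1.16) in liver and let-7c (-1.04) in spleen. With 8 added, 1 member was called in spleen, let-7i at 1.03.

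Relative to the family mean, the replicate block called 3 members for genotype against 0, and without the spleen, an alternative chosen after seeing the data, 3 members differed between tissues against 5. With 50 added, let-7a entered these calls and let-7f left them (adjusted p = 0.0171 and 0.239). The replicate block changed no other call.

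When each array was left out in turn, the count was 0 to 1 in heart, 0 to 1 in spleen and 0 to 1 for genotype relative to the family mean. It was 3 to 5 for differences between tissues relative to the family mean, 1 to 1 over tissues and for liver against other tissues, and 0 to 0 elsewhere. let-7g and let-7i were called between tissues, relative to the family mean, under all 26 alternatives run. Of 3175 values of single members under an alternative, 3116 kept their side of the threshold. In 129 of these a difference that passed in neither setting changed sign. Most of the 3175 values passed in neither setting and most came from leaving out 1 array, so the total says little about how firm the calls are. With all arrays or without the spleen, let-7g in heart was called in 3 of the 10 other settings.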
